A study of Oryza sativa Japonica Group with 4 samples.

Results

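The 4 genes described here, DREB1A, DREB1B, DREB1C and DREB1G, encode dehydration-responsive element-binding proteins of the DREB1 (CBF) subgroup in rice roots. They were taken as every probe set that the array annotation assigns to 1 of these genes alone, by symbol or synonym. This gave 6 probe sets of 57258 on the array, or 4 genes of 17905: DREB1C is measured by 3 probe sets and each of the others by 1. The genes had been chosen with their differences between +Glu and −N roots known, so those differences are given as values, with no test.

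Roots of seedlings of the japonica cultivar TNG67 were compared in 2 groups of 2 biological replicates. In the +Glu group, 17-day-old seedlings were moved for 30 min to a solution with 2.5 mM glutamate. In the −N group, seedlings of the same age were moved for the same time to the solution without nitrogen. All plants had been germinated for 3 days in the dark and then kept for 2 weeks in hydroponics without nitrogen at 30 °C with a 12-h photoperiod, so both groups were nitrogen-starved and neither was chilled. Whole roots were extracted, and each RNA was hybridized to 1 Affymetrix GeneChip Rice Genome Array, on which a transcript is read by 1 or more sets of short probes. In whole roots, fewer cells of a type and less RNA per cell cannot be told apart.

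DREB1 proteins are transcription factors of the AP2/ERF family. They bind the dehydration-responsive (DRE/CRT) element in promoters of genes for dehydrins, osmoprotectant synthesis and other tolerance proteins. In Arabidopsis the CBF genes are switched on within minutes of chilling, downstream of calcium signals and the bHLH factor ICE1, and their expression is gated by the circadian clock. In rice, overexpression of DREB1A or DREB1B raises tolerance to cold, drought and salt. The related DREB2 factors act mainly under dehydration and heat.

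The deposited values are probe-set intensities on a linear scale. The median intensity was 19.3 and 23.9 in +Glu replicates 1 and 2, and 20.1 and 23.9 in −N replicates 1 and 2. The table holds no detection calls, so the 64 probe sets named for foreign reporter genes served as a guide to background. Their 95th percentile lay between 17.5 and 27.7 over the 4 arrays. Of 17 measured root marker genes, 11 were above that level on every array, among them the silicon channel gene Lsi1, with intensities of 7831 and 8863 in +Glu and 7085 and 9275 in −N. SCR1, YSL15, PT6, PT11, IRT2 and HMA2 were not, and none of the markers was listed at 0. All 9 measured green-tissue markers were also above it, and their summed intensity was 15250 and 14190 in +Glu and 12030 and 17080 in −N. The light-harvesting gene CAB2R was the brightest of them, at 10640 and 9106 in +Glu and 8748 and 10780 in −N. Most of that sum is CAB2R, and several dimmer green-tissue markers were much brighter in −N replicate 2 than in −N replicate 1. The Rubisco small subunit gene rbcS had 665.0 and 820.9 in +Glu and 309.7 and 1193 in −N, and the Rubisco activase gene rca had 927.9 and 875.4 in +Glu and 381.3 and 1275 in −N. Replicate 2 was at least 2-fold brighter than replicate 1 in 0 of the 9 green-tissue markers in +Glu and in 5 of 9 in −N, against 2.86% of all probe sets in +Glu and 5.56% in −N. Among the root markers the counts were 0 of 17 in +Glu and 5 of 17 in −N. The nicotianamine synthase genes NAS1 and NAS2 had the highest log2 differences of the root markers, +Glu minus −N (2.27 and 1.90, each with an adjusted p of 1 from limma).

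DREB1B and DREB1G had lower intensities in the roots after glutamate, DREB1A had a higher mean, and DREB1C depended on the probe set. DREB1B had an intensity of 89.2 and 97.5 in +Glu replicates 1 and 2, against 124.2 and 251.8 in −N. Both +Glu arrays lay below both −N arrays, and −N replicate 2 stood well above the others. The log2 difference, +Glu minus −N, was −0.92 (standard error 0.37 from limma), or 0.527-fold. On all 4 arrays DREB1B was brighter than each of the 64 reporter probe sets.

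DREB1G, a DREB1 gene on chromosome 2 whose overexpression has been linked to drought tolerance in rice, showed the same order of arrays. Its intensity was 127.3 and 179.4 in +Glu, against 209.4 and 416.4 in −N. The groups did not overlap, and −N replicate 2 was again the highest array. That is the array on which 5 of the 9 green-tissue markers also stood at least 2-fold above −N replicate 1, by up to 1.95 on the log2 scale for rbcS. So did 5 of the 17 root markers, by up to 1.74 for NAS1. The part of green-tissue RNA in the DREB1 values was not tested. The log2 difference was −0.97 (standard error 0.39), or 0.512-fold, just short of 2-fold. DREB1G was also brighter than all reporter probe sets on every array.

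DREB1A had an intensity of 116.0 and 180.2 in +Glu, against 76.5 and 119.8 in −N. The groups overlapped, since +Glu replicate 1 lay just under −N replicate 2. The log2 difference was 0.59 (standard error 0.34), or 1.51-fold. Between arrays of the same replicate number it was 0.60 for replicate 1 and 0.59 for replicate 2, with replicate 2 the brighter array in both groups. The gap between replicates, 0.64 on the log2 scale in +Glu and 0.65 in −N, was thus as large as the gap between the groups.

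DREB1C was read by 3 probe sets that differed in brightness and in direction. Its brightest probe set, with the suffix A1_at, had an intensity of 71.0 and 67.8 in +Glu, against 95.9 and 70.1 in −N. Here −N replicate 1 alone stood apart, the groups overlapped, and the log2 difference was −0.24 (standard error 0.25). The probe set S1_at was at 6.43 and 8.15 in +Glu and at 6.08 and 6.10 in −N, with a log2 difference of 0.25 (standard error 0.23). The probe set S1_x_at was at 6.99 and 8.85 in +Glu and at 6.68 and 6.24 in −N, with a log2 difference of 0.28 (standard error 0.23). In both of these probe sets the +Glu arrays lay above the −N arrays, but with a pseudocount of 16 the log2 differences were 0.075 for S1_at and 0.090 for S1_x_at. Their values were within the range of the reporter probe sets: S1_at was brighter than 45.3% and 54.7% of them in +Glu and 39.1% and 37.5% in −N. In Affymetrix names the letters A and S mark the antisense and sense orientation given to the sequence a probe set was designed on. Which of the 2 strands carries the DREB1C transcript was not checked here. Over the whole array 46.1% of the 4281 probe sets with the letter A and 45.4% of the 52913 with the letter S were above the 95th percentile of the reporter probe sets on all 4 arrays.

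**Figure D1:**
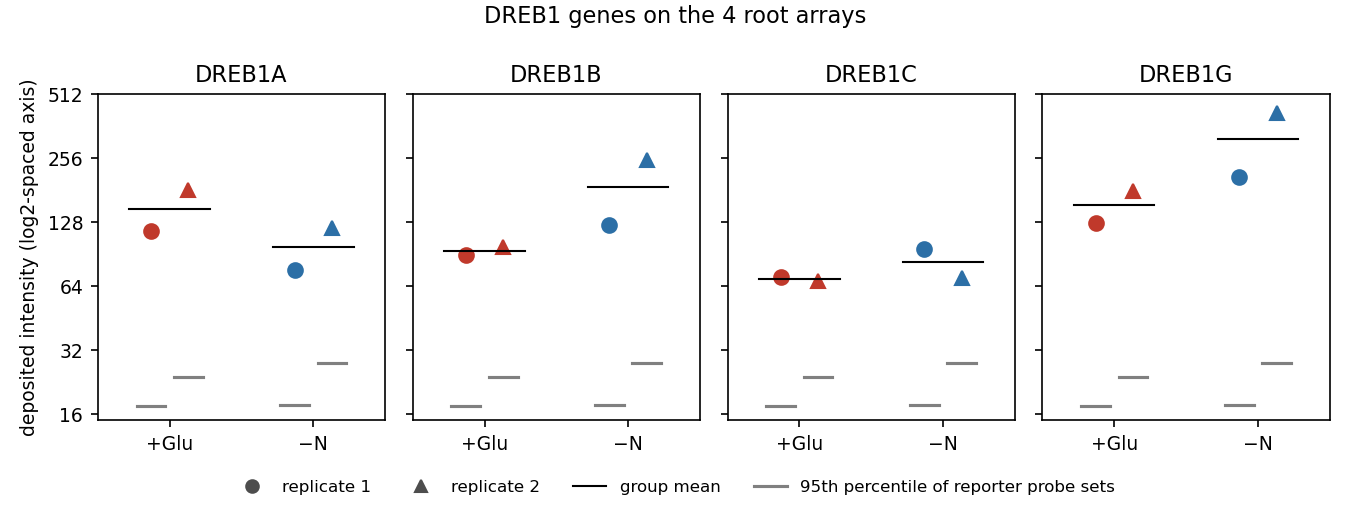
Deposited intensity (log2-spaced axis) of the brightest probe set of each DREB1 gene on the 4 arrays, with +Glu left and −N right in each panel. Circles are replicate 1, triangles replicate 2, black lines group means, and grey lines the 95th percentile of the 64 reporter probe sets on that array. DREB1B and DREB1G have both +Glu arrays below both −N arrays, with −N replicate 2 highest at 251.8 and 416.4, while the groups overlap for DREB1A and DREB1C.

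Of the 6 probe sets, 2 (DREB1B and DREB1G) had both +Glu arrays below both −N arrays, an order that 12.5% of all probe sets showed, and 2 (the dim DREB1C sets) had both above, an order shown by 10.3%. The genes were chosen by this contrast, with their log2 differences (+Glu minus −N) on these arrays known. Nothing is therefore read from these counts, or from the ranks and the central 95% range that follow. An extreme rank is no test of a gene selected on the same values. The log2 difference of DREB1G was lower than that of all but 0.259% of probe sets, that of DREB1B lower than all but 0.288%, and that of DREB1A higher than all but 3.15%. The central 95% of all 57258 probe sets lay between −0.46 and 0.68. At least 2-fold with an unadjusted p under 0.05 from limma, 551 probe sets (0.962%) were higher and 25 (0.0437%) lower in +Glu, and with Benjamini-Hochberg adjustment 0 passed in either direction.

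The size of these differences depended on the −N arrays. Without −N replicate 2 the log2 difference of DREB1B was −0.41 and that of DREB1G −0.47, and without −N replicate 1 they were −1.43 and −1.46. For DREB1A the value was 0.92 without −N replicate 2 and 0.27 without −N replicate 1. It was 0.91 without +Glu replicate 1 and 0.28 without +Glu replicate 2. The DREB1C (A1_at) value came close to 0, at −0.015, without −N replicate 1. With any 1 array left out, none of the 6 probe sets changed sign. Over the array as a whole the +Glu replicates were more alike than the −N replicates: a gap of 2-fold or more separated the +Glu replicates in 1874 probe sets and the −N replicates in 4136.

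**Figure D2:**
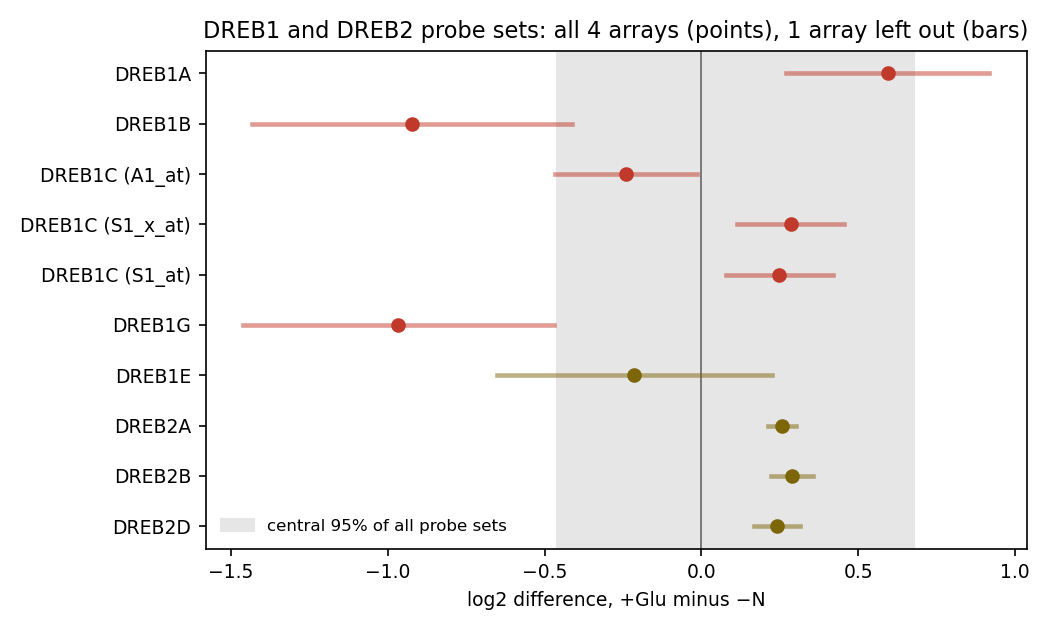
Log2 difference (+Glu minus −N) of the 6 DREB1 probe sets in red and of the other measured DREB1 and DREB2 genes in brown. Points use all 4 arrays, bars run from the lowest to the highest value with 1 array left out, and the grey band is the central 95% of all probe sets (−0.46 to 0.68). DREB1B and DREB1G lie below the band, and the bar of DREB1E alone crosses 0. The genes in red were chosen by this contrast, so their place against the band is no test.

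Between arrays of the same replicate number each gene kept its direction. In replicate 1 the log2 difference was −0.48 for DREB1B and −0.72 for DREB1G. In replicate 2 it was −1.37 for DREB1B and −1.22 for DREB1G. DREB1C (A1_at) was at −0.44 in replicate 1 and −0.047 in replicate 2. So 3 of the 4 brightest probe sets were lower in +Glu in both replicate numbers, as were 28.1% of all probe sets, and 1 (DREB1A) was higher in both, as were 22.1%. Replicate 2 was brighter than replicate 1 in both groups for DREB1A, DREB1B and DREB1G, an order that 59.1% of all probe sets shared. That gap was widest in −N, at 1.02 for DREB1B and 0.99 for DREB1G, against 0.13 and 0.49 in +Glu.

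**Figure D3:**
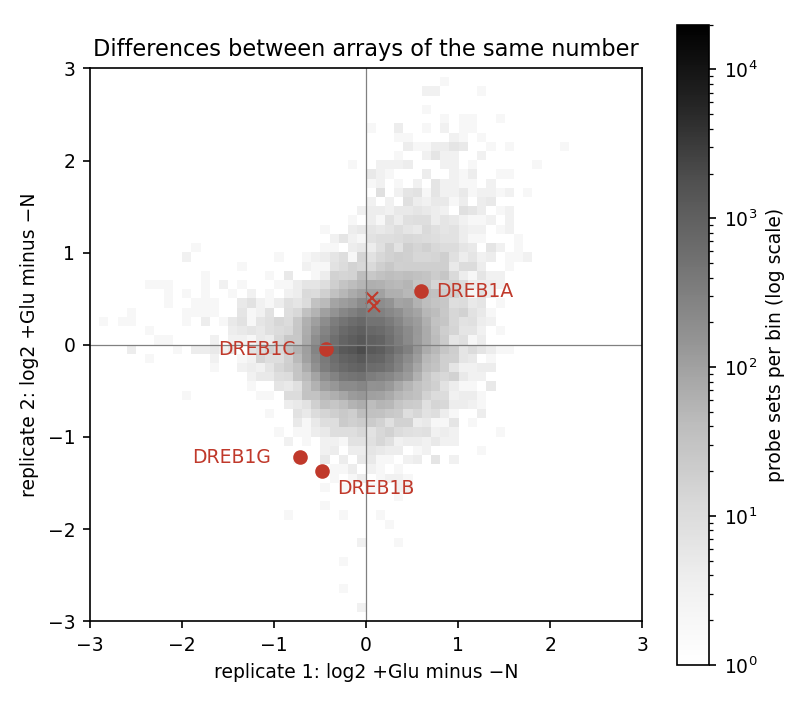
Log2 difference (+Glu minus −N) between the arrays of replicate 1 (horizontal) and of replicate 2 (vertical) for all probe sets (grey, number per bin on a log scale) and for the DREB1 probe sets (red, circles for the brightest of each gene and crosses for the 2 dim DREB1C sets). DREB1B (−0.48 and −1.37) and DREB1G (−0.72 and −1.22) lie at the lower left edge of the cloud and DREB1A (0.60 and 0.59) within the cloud, above 0 on both axes.

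The relation between DREB1 genes on a single array is not altered by a scale factor common to that array. The log2 intensity of DREB1A minus that of DREB1B was 0.38 and 0.89 in +Glu replicates 1 and 2, against −0.70 and −1.07 in −N. All of the +Glu arrays were thus above all of the −N arrays, and the shift was 1.52. DREB1A minus DREB1G was −0.13 and 0.0065 in +Glu, against −1.45 and −1.80 in −N, a shift of 1.56. By contrast, DREB1B minus DREB1G was −0.51 and −0.88 in +Glu, against −0.75 and −0.73 in −N, so the arrays overlapped and the shift was 0.044. With 1 array left out in turn, the shift of DREB1A against DREB1B ranged from 1.26 to 1.77 and that against DREB1G from 1.39 to 1.73. The comparisons with DREB1C, read from its A1_at probe set alone, overlapped. Their shifts were 0.84 for DREB1A minus DREB1C, −0.68 for DREB1B minus DREB1C and 0.73 for DREB1C minus DREB1G. Each shift is the difference of one gene minus that of the other, and the genes were chosen with those differences known, so the shifts add no support to them. The values compare unlike probe sets and do not show which transcript was more abundant.

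**Figure D4:**
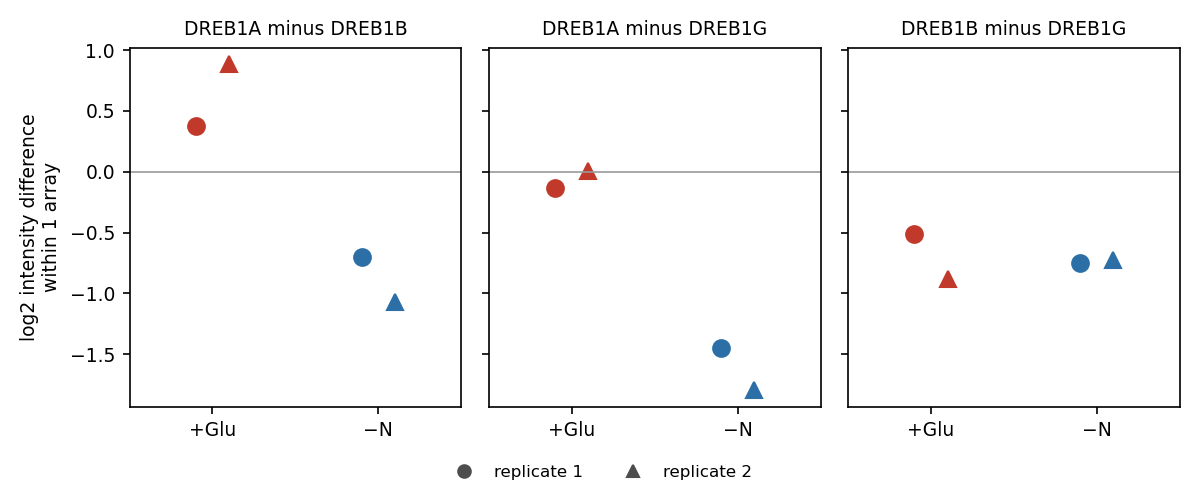
Difference in log2 intensity between pairs of DREB1 genes on each array, +Glu left and −N right, circles replicate 1 and triangles replicate 2. Against DREB1B and DREB1G, DREB1A stands higher on the +Glu arrays than on the −N arrays (shifts of 1.52 and 1.56), and DREB1B against DREB1G does not separate the groups (0.044).

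DREB1A and DREB1B are close neighbours. In the gene table of assembly ASM3414082v1 they lie on chromosome 9 on either side of DREB1H, a further DREB1 gene to which the annotation assigns no probe set. DREB1C lies on chromosome 6 and DREB1G on chromosome 2. The 8 measured genes that are the nearest or second nearest to a member, other than members, had log2 differences between −0.26 and 0.32. In 6 of these 8 the groups overlapped. Separated groups were the minority over all genes too, at 14.9% with +Glu higher and 10.1% with +Glu lower. The smallest unadjusted p among them was 0.199 and the smallest adjusted p was 1 (limma).

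Over the 4 arrays the profile of DREB1B, centred on its mean, was close to those of the homeobox gene Hox28 (Euclidean distance 0.14 on the log2 scale), the copper transporter gene COPT1 (0.18), the cyclin gene CYCP4-1 (0.19), OsCASPL1C1 (0.22) and DREB1G itself (0.26), out of 2457 named genes. COPT1 had an intensity of 1723 and 2027 in +Glu, against 2481 and 4436 in −N. For DREB1G the nearest were CIPK3, a calcium-regulated kinase gene (0.25), COPT1 (0.25), DREB1B (0.26), OsCASPL1C1 (0.27) and a further copper transporter gene, COPT2 (0.32). COPT2 was at 45.2 and 61.1 in +Glu, against 55.7 and 135.8 in −N.

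DREB1A had other neighbours in profile: PDC (0.115), FTSH3 (0.115), the calcium-dependent protein kinase gene CPK24 (0.12), AGO2, which encodes an Argonaute protein of RNA silencing (0.12), and PSD2 (0.14). CPK24 was at 408.2 and 596.5 in +Glu, against 280.9 and 403.0 in −N. Closest to DREB1C (A1_at) were BHLH142 (0.082), GNA1 (0.10), the AP2 factor gene AP2-1 (0.10), ACR2.2 (0.11) and OsTrx19 (0.13). The share of genes within these distances was not counted. Another measure, correlation, was taken over all 17904 other genes and not over the named ones alone, and with 4 arrays high values of it are common. DREB1B and DREB1G were both chosen with their differences known, so their closeness adds no support to them. A Pearson correlation of at least 0.95 with DREB1A was reached by 6.76% of the other genes, with DREB1B by 2.76%, with DREB1C by 1.71% and with DREB1G by 3.23%.

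Of 5 other DREB1 genes in the gene table, 1 has a probe set. This was DREB1E, with an intensity of 67.6 and 87.6 in +Glu, against 65.8 and 120.8 in −N. Its groups overlapped, and its log2 difference of −0.21 (unadjusted p = 0.570 and adjusted p = 1 from limma) was 0.23 without −N replicate 2. DREB2A was at 46.1 and 43.3 in +Glu, against 36.8 and 37.9 in −N (log2 difference 0.26, unadjusted p = 0.270 from limma). DREB2B, the main dehydration-responsive DREB2 gene of rice, was at 65.5 and 71.7 in +Glu, against 57.7 and 54.5 in −N (log2 difference 0.29, unadjusted p = 0.229 from limma). DREB2D was near the reporter level at 5.02 and 5.55 in +Glu and 4.40 and 4.53 in −N, and its log2 difference of 0.24 was 0.056 with a pseudocount of 16. In all 3 measured DREB2 genes the lower +Glu array exceeded the higher −N array, an order found in 14.9% of all genes, while 10.1% had the opposite order. None of the 3 passed an adjusted p under 0.05 in limma (0 at an unadjusted p under 0.05).

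Among 4 other AP2/ERF genes with a matched name, log2 differences ran from −0.21 (AP2-1) to 0.23 (EREBP-1), with a median of 0.020, against 0.026 over all genes. AP2-5 was at 0.097 and ERF78, whose intensities lay within the range of the reporter probe sets, at −0.057. Of the 4, 0 passed the adjusted threshold in limma and 0 an unadjusted p under 0.05. The median was −0.033 when all probe sets of a gene were averaged and −0.00059 after quantile normalization. No gene was matched under the name ERF109, so this list does not read it. The study lists ERF109 as rapidly induced by glutamate on these same arrays and also by qRT-PCR. The list median thus does not speak for the AP2/ERF family as a whole.

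Regulators known to act above DREB1 genes or in the same cold and abscisic acid (ABA) pathways made up a list of 25 measured genes. For it 44 names were searched and 26 genes matched. ICE1 is not among the matched genes, and COLD1 was matched but not measured, so the list does not read either of them. Their median log2 difference was 0.11, and 17 were positive and 8 negative (over all genes, 9879 positive and 8026 negative). Highest were BIMK1, the mitogen-activated protein kinase MPK5 (0.99, unadjusted p = 0.00534 from limma), and MYB4, a cold-induced MYB factor (0.80, unadjusted p = 0.0174). MPK5 was at 1977 and 2370 in +Glu, against 1074 and 1112 in −N, so its groups lay far apart. MYB4 was at 2141 and 2648 in +Glu, against 1490 and 1251 in −N. Lowest were the calcium-dependent kinase gene CPK17 (−0.36, unadjusted p = 0.188) and the SnRK2 kinase gene SAPK1 (−0.22, unadjusted p = 0.376). In limma, 2 of the 25 reached an unadjusted p under 0.05 and were higher and 0 lower, where 3.86% of all genes were higher and 0.38% lower, and after adjustment 0 of the 25 passed. The median was −0.036 without +Glu replicate 2, −0.17 without −N replicate 1 and 0.33 without −N replicate 2.

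Genes of cold and dehydration tolerance, including the dehydrin and late embryogenesis abundant (LEA) classes known as targets of DREB1 proteins, had a median log2 difference of 0.20 over 16 measured genes. Of these, 13 were positive and 3 negative, where 9879 of all 17905 genes were positive. TPP1, a trehalose-6-phosphate phosphatase gene, was highest of the 16 (1.13, unadjusted p = 0.0245 from limma), at 524.4 and 760.3 in +Glu, against 215.0 and 389.8 in −N. RAB21, a dehydrin gene, had 33.1 and 24.9 in +Glu, against 16.3 and 16.04 in −N. Both −N values lay under the 95th percentile of the reporter probe sets, and the log2 difference of 0.83 was 0.48 with a pseudocount of 16. LTI6A, a low-temperature-induced membrane protein gene, was lowest (−0.51, unadjusted p = 0.208), at 2574 and 3203 in +Glu, against 2975 and 5601 in −N. The seed protein gene EM followed at −0.26, with 16.4 and 27.8 in +Glu and 19.4 and 33.8 in −N. The other members had log2 differences between −0.050 (OsP5CS2) and 0.79 (RAB16B), and of the RAB16 genes RAB16C and RAB16D were both at 0.22. In limma, 3 of the 16 reached an unadjusted p under 0.05 and were higher and 0 lower, where 3.86% of all genes were higher and 0.38% lower. These were TPP1, RAB21 and RAB16B, and RAB16B, at 17.2 and 17.7 in +Glu and 10.1 and 10.1 in −N, lay under the reporter 95th percentile on all 4 arrays. After adjustment 0 passed. The list median was −0.014 without −N replicate 1 and 0.51 without −N replicate 2.

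Of 6 measured transcription factors of the ABA and dehydration response, NAC5 (1.07, unadjusted p = 0.00369 from limma) and Hox22 (0.70, unadjusted p = 0.0492) had the highest values, and for each the +Glu arrays lay above the −N arrays. NAC5 had an intensity of 2711 and 2522 in +Glu, against 1143 and 1355 in −N. TRAB1 (−0.28, unadjusted p = 0.253) and NAC6 (−0.20, unadjusted p = 0.434) had both +Glu arrays below. After adjustment 0 of the 6 passed, and their median was 0.23. The study had selected genes for NAC5, MAP kinase 5 and a trehalose-6-phosphate phosphatase on these same arrays. The array values of NAC5, MPK5 and TPP1 are thus not independent evidence of their direction. By qRT-PCR, which is not part of the data used here, the study also reports these genes as induced by glutamate. It could not verify by qRT-PCR any of the genes it had selected as down-regulated on these arrays. Those genes are not named, so whether a DREB1 gene was among them is unknown. The lower DREB1B and DREB1G values thus rest on the arrays alone.

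Clock genes differed little. Over 7 measured genes the median was −0.11, from −0.24 for CCA1, the morning factor (unadjusted p = 0.368 from limma), and −0.15 for PCL1 to 0.039 for PRR37 and 0.054 for PRR73. CCA1 was at 352.1 and 336.2 in +Glu, against 353.1 and 465.2 in −N. None passed in limma, with 0 at an unadjusted p under 0.05. The median turned to 0.012 without +Glu replicate 1 and 0.089 without −N replicate 2, and PRR37 and PRR73 were at −0.054 and −0.016 after quantile normalization.

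**Figure D5:**
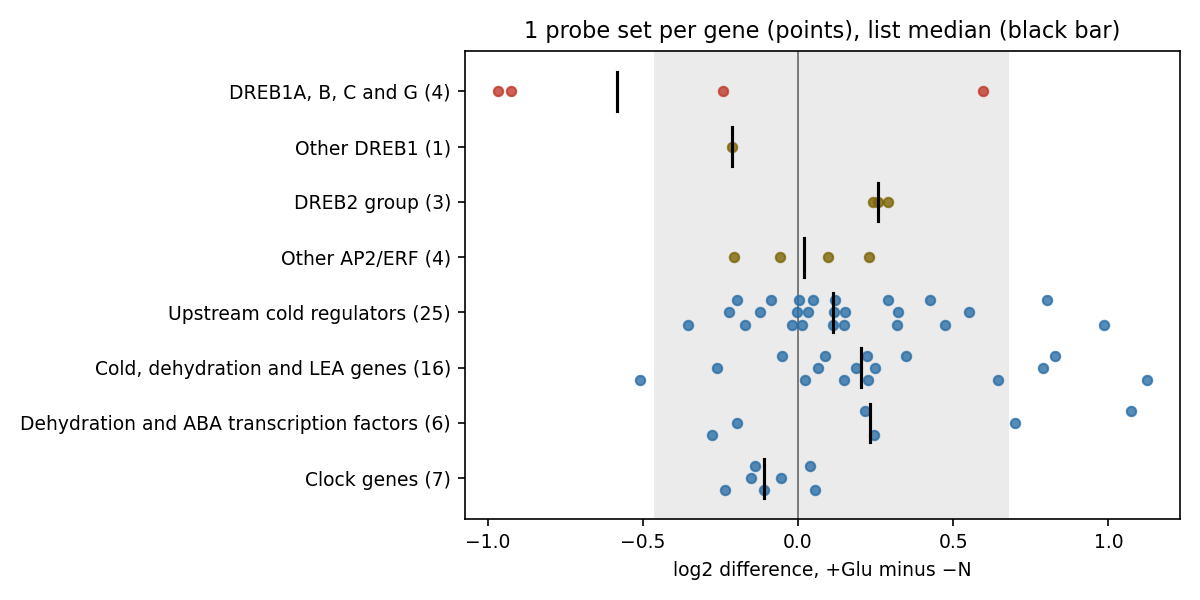
Log2 difference (+Glu minus −N) of the DREB1 genes (red), their relatives (brown) and other genes of the cold and dehydration response (blue), with 1 probe set per gene and the number of measured genes in parentheses. Black bars are list medians and the grey band is the central 95% of all probe sets (−0.46 to 0.68). DREB1G and DREB1B lie lowest (−0.97 and −0.92), while the medians of the other lists lie between −0.21 and 0.26. The DREB1 genes in red were selected on this contrast, so their place is no test of them.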

How the data were processed

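The deposited table gives each probe set an intensity, not log-transformed, for every array. GCOS and RMA are named in the submitters' processing notes. No source used here gives their versions, order or settings. A planned description of promoter motifs and protein identity was not run, as no sequences were used here. After 123 Affymetrix control probe sets were left out, the log2 of each value was taken with no pseudocount or filter, and +Glu minus −N was fitted over 57258 probe sets with limma 3.58.1 under R 4.3.3, using lmFit and eBayes with no block (two-sided), with Benjamini-Hochberg adjustment over all of them. The fit was tested on simulated data. Figures were drawn with Python 3.11.15 and matplotlib 3.10.9.

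Of the probe sets, 22436 map to 1 gene, 95 to several and 34727 to none. A gene other than a member was read from the brightest of its probe sets by mean log2. Gene identifiers were matched to the RefSeq gene table of assembly ASM3414082v1. Lists were matched by symbol or synonym, with prefixes of AP2/ERF names limited to a following number or letter, and genes whose only matching name belongs to 2 or more genes were left out. By the naming rule the text gives the 2 highest and the 2 lowest genes of each pathway list, all DREB1 and DREB2 genes, and for each member the 5 genes closest in profile that have a symbol or synonym other than a placeholder. Marker genes, and further genes of the cold and dehydration list, were named after their values had been seen. Members and lists were chosen with earlier results of these data known.

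Precision is limited by the number of arrays. The labels call the replicates biological and do not say how they were separated, so p-values measure only the spread between these samples. The fit was repeated with a replicate block and without each array (a group left with 1 array took its spread from the other). It was also repeated with quantile normalization, median centring, a pseudocount of 16, a mean log2 of at least 5, and trend and robust settings. The mean of all probe sets of a gene was used for list medians alone.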

Additional observations from a re-analysis of the deposited data

How the results depend on the processing

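With 2 arrays a group, 1 array can move each value. No member value was taken under the mean log2 filter, the trend and robust settings or the mean over a gene's probe sets. The DREB1C probe sets were thus not averaged, and they differed in direction (−0.24 for A1_at, 0.25 for S1_at and 0.28 for S1_x_at). The log2 differences of the brightest DREB1 probe sets kept their sign in each of the other alternatives. With 1 array left out they ranged from 0.27 to 0.92 for DREB1A, −1.43 to −0.41 for DREB1B, −0.47 to −0.015 for DREB1C and −1.46 to −0.47 for DREB1G, and the shift of DREB1A ranged from 1.26 to 1.77 against DREB1B and from 1.39 to 1.73 against DREB1G. In the same way the counts of probe sets at least 2-fold apart at an unadjusted p under 0.05 (551 higher and 25 lower) ranged from 343 to 1090 higher and from 29 to 513 lower, and those at an adjusted p under 0.05 from 0 to 433 higher and from 0 to 202 lower, with calls only where a −N array was left out. List medians ranged from −0.17 to 0.33 for the upstream regulators, −0.014 to 0.51 for the cold and dehydration genes, −0.22 to 0.089 for the clock genes and −0.074 to 0.15 for the other AP2/ERF genes. Single genes that changed sign ranged from −0.65 to 0.23 for DREB1E, −0.66 to 0.14 for EM, −0.28 to 0.17 for ERF78, −0.14 to 0.34 for AP2-5, −0.17 to 0.25 for PRR37 and −0.21 to 0.32 for PRR73.

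The replicate number was not stated to pair the arrays. Deviations of same-numbered arrays correlated at 0.546 over the 57258 probe sets, and with the replicate block the 2-fold counts were 609 higher and 52 lower, with 0 in either direction after adjustment. The block leaves the DREB1 differences as they are and gives them standard errors of 0.15 for DREB1A, 0.25 for DREB1B, 0.17 for DREB1C (A1_at) and 0.19 for DREB1G. These errors are smaller than those of the main fit, but they rest on the unstated pairing and are no test of the members. With a pseudocount of 16 the counts were 311 higher and 10 lower, the DREB2 median was 0.19, and the dim DREB1C probe sets and DREB2D, which lie within the reporter signal, were at 0.075, 0.090 and 0.056. After quantile normalization 40 probe sets were lower, the AP2/ERF median was −0.00059, PRR37 was at −0.054 and PRR73 at −0.016. With all probe sets of a gene averaged the AP2/ERF median was −0.033. The cause of these moves was not tested.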
